A study of Mus musculus with 4 samples.

Results

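The genes described here are 48 mouse genes of mitosis and chromosome segregation: the cyclins and kinases that start mitosis, the spindle, the kinetochore, the spindle checkpoint, the condensin complex and the proteins that divide the cell. They were chosen by name, from a list of textbook mitotic genes, and each was read through the array probes whose transcript accession belongs to it. The choice was made with earlier results of these data known. Of the 48 genes, 47 were found on the array and passed the filter on dim probes, out of 17305 genes named on the array and 15531 genes tested. Prc1 matched no probe, so it has no value here.

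The arrays compared whole pancreas of Cyp11a1 knockout mouse embryos with that of wild-type embryos, both of strain C57BL/6JNarl and both at E18.5, shortly before birth. Cyp11a1 encodes the mitochondrial enzyme that makes pregnenolone from cholesterol, the entry step of steroid hormone synthesis. Each of 4 two-colour arrays held 1 knockout extract labelled red and 1 wild-type extract labelled green, and the labels call them 4 biological replicates. Whether an extract is 1 embryo or a pool, whether the extracts of an array are littermates, the sex of the embryos and the kind of Cyp11a1 allele are not given in the sources used here. The sample titles carry extract codes, some of whose letters recur within an array and between arrays, and what the letters stand for is not given. If extracts share a litter or a pool, the p-values measure only the spread between these arrays.

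In dividing cells, cyclins bound to the kinase Cdk1 drive entry into mitosis, and the chromosomes condense and attach through their kinetochores to spindle microtubules. The spindle checkpoint holds the anaphase-promoting complex back until every kinetochore is attached. The complex then marks securin and the mitotic cyclins for destruction, the sister chromatids part, and a contractile ring divides the cell. Many of these genes are transcribed mainly in the G2 and M phases, so their summed RNA in a tissue reflects how many cells are in cycle as well as how much RNA each such cell holds, and in whole pancreas these cannot be told apart. At this age exocrine acinar cells, duct cells, mesenchyme and vessels of the mouse pancreas all still divide.

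A pair of promoter elements is known from such genes, the CCAAT box, which binds the factor NF-Y, and the cell cycle homology region, whose core letters TTTGAA are bound by the DREAM and MuvB complexes. The stretches printed here show both elements in genes of different roles; they were chosen as examples after the values were seen. Each is RefSeq sequence of build GRCm38.p6, from 150 bases before to 30 bases after the annotated start, 5′ to 3′ on the strand of the gene, and capitals mark CCAAT or TTTGAA, or their reverse complements ATTGG and TTCAAA. The build named in the array files is older, so these coordinates are those of the sequence table and not of the probes. The first 4 genes rose in the knockout and Kif11 did not pass the test.
Mki67, chr7:135716350-135716529, minus strand: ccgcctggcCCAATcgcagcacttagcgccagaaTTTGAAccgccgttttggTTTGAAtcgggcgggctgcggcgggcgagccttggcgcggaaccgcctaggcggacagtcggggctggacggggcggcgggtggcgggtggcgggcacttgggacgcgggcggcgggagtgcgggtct
Cdk1, chr10:69352883-69353062, minus strand: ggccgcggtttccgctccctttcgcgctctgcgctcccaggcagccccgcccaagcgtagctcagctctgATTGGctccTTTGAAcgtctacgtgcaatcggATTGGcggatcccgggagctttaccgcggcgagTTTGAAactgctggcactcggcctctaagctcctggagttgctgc
Ccnb2, chr9:70421525-70421704, minus strand: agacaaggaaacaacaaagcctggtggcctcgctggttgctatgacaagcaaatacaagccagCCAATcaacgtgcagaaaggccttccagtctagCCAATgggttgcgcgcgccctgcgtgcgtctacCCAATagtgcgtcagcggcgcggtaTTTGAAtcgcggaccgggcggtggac
Cdc20, chr4:118437314-118437493, minus strand: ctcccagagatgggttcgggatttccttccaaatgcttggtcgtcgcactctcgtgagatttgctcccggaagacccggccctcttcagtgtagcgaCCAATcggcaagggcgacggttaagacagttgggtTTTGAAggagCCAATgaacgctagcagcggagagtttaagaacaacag
Kif11, chr19:37376232-37376411, plus strand: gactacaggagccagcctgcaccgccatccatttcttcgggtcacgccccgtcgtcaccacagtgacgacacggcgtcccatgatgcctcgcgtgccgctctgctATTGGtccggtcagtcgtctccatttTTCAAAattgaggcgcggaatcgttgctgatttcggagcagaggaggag

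A promoter was listed for 39 of the 48 genes, 42 promoters in all, each searched from 250 bases before to 50 bases after the start. CCAAT stood on either strand in 33 of the 42 (78.6%), against 37.4% of all 32851 mouse promoters in the table. TTTGAA stood on either strand in 33 of the 42 (78.6%), against 17.9% of all promoters. Both stood in 30 of the 42 (71.4%), against 6.95% of all promoters, and CCAAT at 2 or more places in 22 (52.4%), against 11.7%. The share with both was 14 of 20 promoters (70.0%) among genes that rose and 14 of 20 (70.0%) among genes that did not pass the test. In the same order, CCAAT stood in 17 (85%) and 14 (70%), and TTTGAA in 14 (70%) and 17 (85%). CCAAT at 2 or more places stood in 13 (65%) and 9 (45%). These differences were not tested. The motifs can overlap each other, a gene with more than 1 listed start counts once for each, and a match is a description of sequence only.

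The mitotic genes were mostly a little higher in the knockout pancreas. With log2 ratios (knockout over wild type) fitted across all genes with limma and p-values adjusted by the Benjamini-Hochberg method, 25 of the 47 tested genes (53.2%) rose at an adjusted p under 0.05 and 0 fell. Among all 15531 genes tested, 1468 (9.45%) rose, and 2262 (14.6%) passed in either direction. Because the list was not chosen blind to these data, the shares are a description only. The median log2 ratio of the 47 genes was 0.20 (1.15-fold), against 0.013 over all genes. The sizes were small: the genes that rose did so by 0.16 to 0.60, with a median of 0.30, and the highest, Mki67, was 1.51-fold higher. With median centring in place of loess within each array, the median of all genes was itself 0.26, 9470 genes were called higher and 2458 lower, and of the mitotic genes 44 were higher and 1 was lower, so signs close to 0 depend on this choice.

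The sign was shared beyond the genes that passed. The fitted ratio was above 0 for 41 of the 47 genes, and 33 (70.2%) were above 0 on every array that measured them, against 24.1% of all genes. All 25 genes that rose were above 0 on every array measured. The 22 others had ratios from -0.10 to 0.20 with adjusted p of 0.0508 to 0.986. Of the 47, 35 had an unadjusted limma p under 0.05, against 4777 of all 15531 genes tested.

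The shift was of like size on each array. The median over the genes was 0.22, 0.21, 0.24 and 0.17 on arrays 1 to 4, while the median over all genes lay between 0.017 and 0.022. On arrays 1 to 4, 43 of 46, 39 of 47, 42 of 46 and 38 of 47 measured genes were above 0. Across the genes, the ratios of any 2 arrays correlated with a Pearson r of 0.50 to 0.79, and across all genes with 0.31 to 0.60; these arrays share no extract, and genes are not independent replicates.

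**Figure D1:**
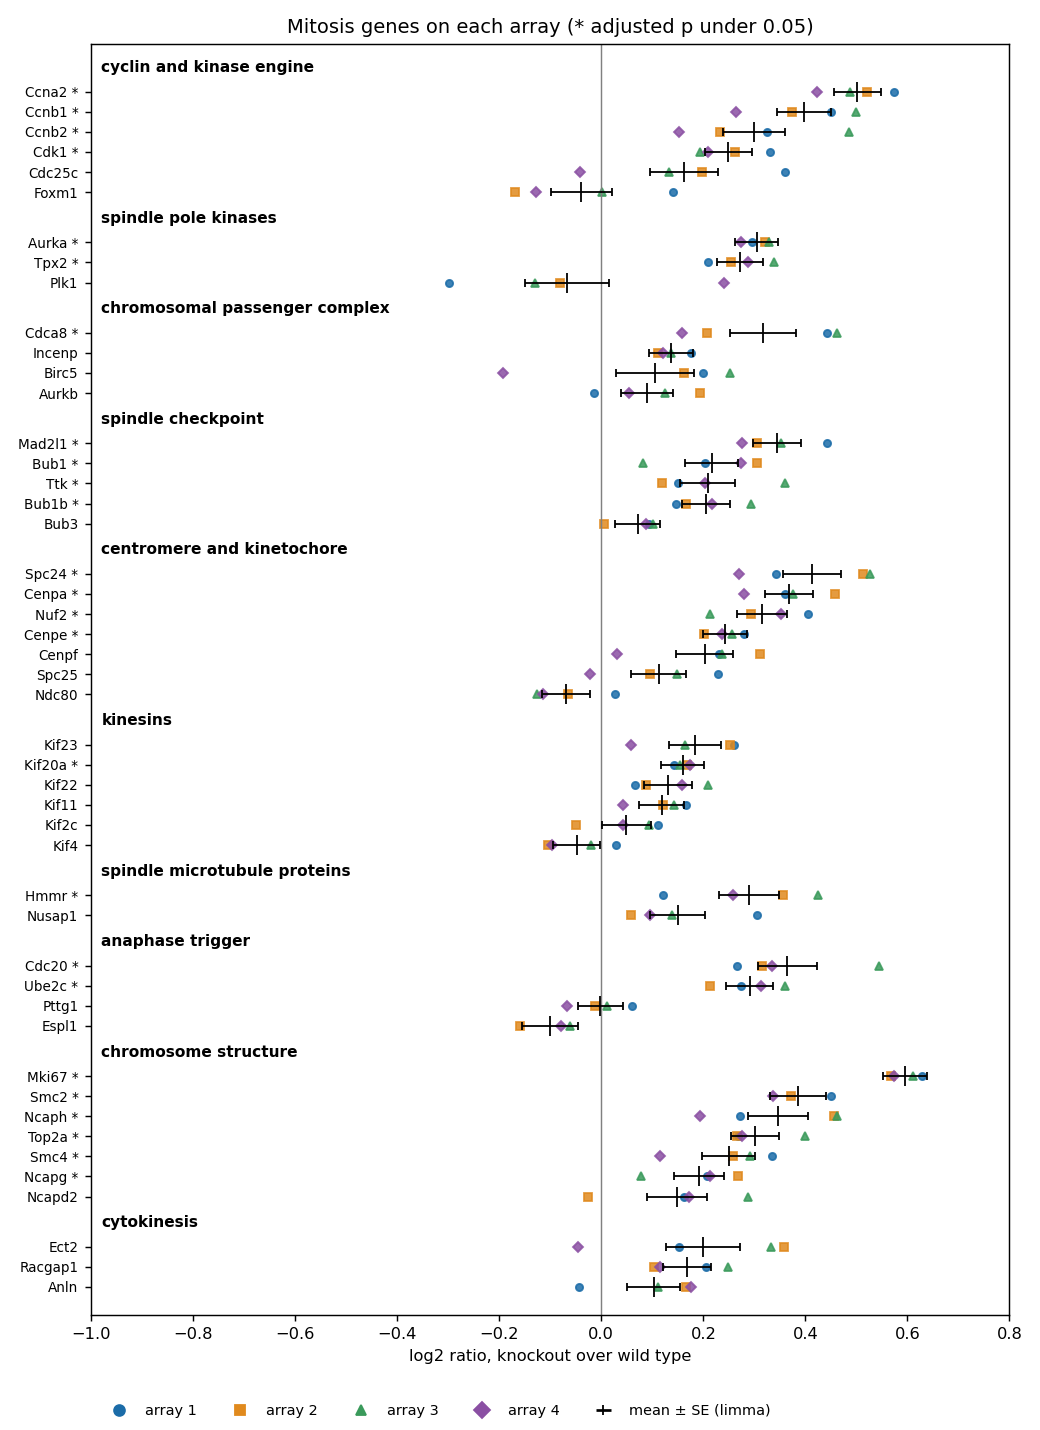
Log2 ratio of knockout over wild type for the 47 tested mitotic genes (x axis), grouped by role and ordered by the fitted mean, with 1 symbol for each array and the limma mean ± SE as a cross and bar. Mki67 stands highest at 0.60 with its 4 arrays between 0.57 and 0.63, and 6 genes, among them Plk1 with arrays from -0.30 to 0.24, have a mean below 0.

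All values carry the same limits. The knockout extract was in the red channel on every array, so a gene-specific dye effect and genotype cannot be told apart. The arrays were on 1 slide with 1 scan, the median spot signal was 304 to 467 in red and 163 to 224 in green, and a channel held 78.2% to 85.1% of its spots well above background. On all 4 arrays, 45 of the 47 genes were well above background in each channel. Cyp11a1 itself had a log2 ratio of -0.16 ± 0.070 (SE, n = 4, limma adjusted p = 0.165), with -0.19, -0.40, 0.013 and -0.072 on arrays 1 to 4; where its probe lies relative to the deleted part is not given here, so it does not check the genotype. Xist, the RNA of the inactive X chromosome, had ratios of -3.91, -0.28, -4.22 and 3.46, so the extracts of at least arrays 1, 3 and 4 differed in it, and what part this plays in any ratio was not tested.

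In the cyclin and kinase engine of mitotic entry, 4 of 6 genes rose, and the median of the 6 was 0.27. Ccna2, the cyclin A of S and G2 phase, had ratios of 0.57, 0.52, 0.49 and 0.42 on arrays 1 to 4, a mean of 0.50 ± 0.046 (SE, n = 4, limma adjusted p = 0.00208). Ccnb1, the main B-type cyclin partner of Cdk1, had 0.45, 0.37, 0.50 and 0.26, a mean of 0.40 ± 0.053 (adjusted p = 0.00456). Cdk1, the kinase that drives mitosis, had 0.33, 0.26, 0.19 and 0.21, a mean of 0.25 ± 0.046 (adjusted p = 0.0143). Every array was above 0 for these genes, and for Ccna2 the lowest array still lay at 0.42.

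Ccnb2, the second B-type cyclin, had 0.32, 0.23, 0.49 and 0.15, a mean of 0.30 ± 0.061 (adjusted p = 0.0198). Arrays 1 and 3 carried its call: without array 1 the limma adjusted p was 0.0712 and without array 3 it was 0.0665. Cdk1 passed narrowly in the same way, with 0.0560 without array 1 and 0.0505 without array 4, and with the mean of its probes its ratio was 0.09 (adjusted p = 0.231), the second probe being at -0.06. Cdc25c, a phosphatase that activates Cdk1, had a mean of 0.16 (adjusted p = 0.148) with array 4 at -0.04.

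Foxm1, the forkhead factor that activates many G2 and M genes, did not pass the test. Its ratios were 0.14, -0.17, 0.0022 and -0.13, a mean of -0.04 ± 0.061 (limma adjusted p = 0.708, 95% interval -0.18 to 0.10), and arrays stood on both sides of 0. Its sign turned to 0.38 under median centring. The upper bound of its interval lies under the means of Ccna2, Ccnb1, Ccnb2 and Cdk1, though the difference between genes was not tested.

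At the spindle poles, 2 of 3 genes rose. Aurka, the Aurora A kinase of the spindle poles, had 0.29, 0.32, 0.33 and 0.27, a mean of 0.30 ± 0.042 (SE, n = 4, limma adjusted p = 0.00552). Tpx2, the microtubule protein that activates Aurora A, had 0.21, 0.25, 0.34 and 0.29, a mean of 0.27 ± 0.045 (adjusted p = 0.00992). The 4 arrays of each lay close together. Plk1, the Polo kinase of mitotic entry and spindle assembly, had -0.30, -0.08, -0.13 and 0.24, a mean of -0.07 ± 0.082 (adjusted p = 0.620, 95% interval -0.26 to 0.12), which became 0.32 under median centring. It had the widest spread of the 47 genes, with array 4 alone above 0.

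The chromosomal passenger complex, which corrects faulty attachments and sits at the central spindle, had 1 of 4 genes past the test (25%, against 14.6% of all genes). Cdca8, its borealin subunit, had 0.44, 0.21, 0.46 and 0.16, a mean of 0.32 ± 0.064 (SE, n = 4, limma adjusted p = 0.0194). Its call rested on arrays 1 and 3, without which the adjusted p was 0.0739 and 0.0708. The scaffold Incenp had a mean of 0.14 (adjusted p = 0.0743) with all 4 arrays between 0.11 and 0.18. The kinase subunit Aurkb had a mean of 0.09 (adjusted p = 0.273) and became -0.21 under median centring. Birc5, the survivin subunit, had 0.20, 0.16, 0.25 and -0.19, a mean of 0.11 (adjusted p = 0.386), with array 4 apart from the other arrays.

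Of the 5 spindle checkpoint genes, 4 rose. Mad2l1, the Mad2 protein that binds and holds Cdc20, had 0.44, 0.31, 0.35 and 0.28, a mean of 0.34 ± 0.048 (SE, n = 4, limma adjusted p = 0.00536). Bub1b, which encodes BubR1 of the same inhibitory complex, had 0.15, 0.17, 0.29 and 0.22, a mean of 0.21 ± 0.047 (adjusted p = 0.0276). Bub1, the kinetochore kinase that recruits checkpoint proteins, had 0.20, 0.30, 0.08 and 0.27, a mean of 0.22 ± 0.052 (adjusted p = 0.0332). Ttk, the Mps1 kinase at the top of the checkpoint, had 0.15, 0.12, 0.36 and 0.20, a mean of 0.21 ± 0.054 (adjusted p = 0.0406).

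Mad2l1 stayed past the threshold whichever array was left out, and the other 3 checkpoint genes did not. Without array 1, 3 or 4, Bub1b had an adjusted p of 0.0611, 0.115 or 0.103, and Ttk of 0.0855, 0.148 or 0.120. Without array 1, 2 or 4, Bub1 had 0.0907, 0.0821 or 0.126, and with the mean of its probes its ratio was 0.11 (adjusted p = 0.115), the second probe being at 0.01. Bub3, the adaptor that carries Bub1 and BubR1 to the kinetochore, had 0.09, 0.0059, 0.10 and 0.09, a mean of 0.07 (adjusted p = 0.311).

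Among 7 centromere and kinetochore genes, 4 rose. Spc24, a subunit of the Ndc80 complex that grips microtubules, had 0.34, 0.51, 0.53 and 0.27, a mean of 0.41 ± 0.058 (SE, n = 4, limma adjusted p = 0.00552). Cenpa, the histone H3 variant that marks the centromere, had 0.36, 0.46, 0.38 and 0.28, a mean of 0.37 ± 0.048 (adjusted p = 0.00438). Nuf2, another Ndc80 complex subunit, had 0.40, 0.29, 0.21 and 0.35, a mean of 0.32 ± 0.049 (adjusted p = 0.00797). Every array lay at 0.21 or above for these genes.

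Cenpe, the kinesin that moves chromosomes to the spindle equator, had 0.28, 0.20, 0.26 and 0.24, a mean of 0.24 ± 0.043 (adjusted p = 0.0123); without array 3 or 4 its limma adjusted p was 0.0525 or 0.0546. Cenpf, a large kinetochore protein of G2 and M, missed the threshold with a mean of 0.20 ± 0.056 (adjusted p = 0.0508), its array 4 at 0.03 against 0.23 to 0.31 on the others, and passed without array 4 (adjusted p = 0.0473) and under 5 changes of the processing, for example a stricter filter on dim probes (adjusted p = 0.0467). Of the other subunits of the Ndc80 complex, Spc25 had a mean of 0.11 (adjusted p = 0.199). Ndc80 had 0.03, -0.06, -0.13 and -0.11, a mean of -0.07 ± 0.047 (adjusted p = 0.357, 95% interval -0.18 to 0.04), which turned to 0.41 under median centring. Whether the subunits differ from each other was not tested.

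Of the 6 genes listed here as kinesins, 1 passed the test (16.7%, against 14.6% of all genes). This was Kif20a, which works in the central spindle, with 0.14, 0.17, 0.15 and 0.17 and a mean of 0.16 ± 0.042 (SE, n = 4, limma adjusted p = 0.0436), the smallest increase of the 25. Its arrays lay close together, yet the call was lost without any 1 array (adjusted p = 0.0825 to 0.156) and with the processed signals (adjusted p = 0.113) or the deposited log ratio (adjusted p = 0.102). Kif23, the motor of the centralspindlin complex, had a mean of 0.18 ± 0.051 (adjusted p = 0.0517), and passed under 5 alternatives, for example a stricter filter on dim probes (adjusted p = 0.0479). Kif22, a chromosome arm motor, had 0.13 (adjusted p = 0.104), Kif11, which pushes the spindle poles apart, 0.12 (adjusted p = 0.123), and Kif2c, a microtubule depolymerase, 0.05 (adjusted p = 0.527). Kif4, a chromosome-bound motor encoded on the X chromosome, had 0.03, -0.10, -0.02 and -0.10, a mean of -0.05 ± 0.046 (adjusted p = 0.523, 95% interval -0.16 to 0.06), which became 0.41 under median centring and 0.02 with the mean of its probes.

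Of the spindle microtubule proteins, Hmmr rose and Nusap1 did not pass. Hmmr, which helps focus spindle poles, had 0.12, 0.36, 0.42 and 0.26, a mean of 0.29 ± 0.059 (SE, n = 4, limma adjusted p = 0.0193). Its arrays differed by more than those of most genes here, and without array 2, 3 or 4 the adjusted p was 0.0518, 0.0731 or 0.0602. It also missed the threshold with the processed signals (adjusted p = 0.0651) and the deposited log ratio (adjusted p = 0.0580), although the ratio was then 0.32 and 0.33. Nusap1, which bundles microtubules near chromosomes, had a mean of 0.15 (adjusted p = 0.108).

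Of the 4 anaphase trigger genes, 2 rose. Cdc20, the activator of the anaphase-promoting complex and the protein the checkpoint restrains, had 0.27, 0.32, 0.54 and 0.33, a mean of 0.36 ± 0.057 (SE, n = 4, limma adjusted p = 0.00800). Ube2c, the ubiquitin-conjugating enzyme of that complex, had 0.27, 0.21, 0.36 and 0.31, a mean of 0.29 ± 0.046 (adjusted p = 0.00848). Both stayed past the threshold without any 1 array.

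Pttg1, the securin that holds separase inactive until the complex destroys it, had 0.06, -0.01, 0.01 and -0.07, a mean of -0.0016 ± 0.045 (limma adjusted p = 0.986, 95% interval -0.11 to 0.10), with 0.12 under median centring. Espl1, separase itself, was measured on arrays 2, 3 and 4 with -0.16, -0.06 and -0.08, a mean of -0.10 ± 0.054 (n = 3, adjusted p = 0.265, 95% interval -0.23 to 0.03), and 0.30 under median centring. It was the only gene of the 47 below 0 on every array that measured it. The upper bounds of both intervals lie under the means of Cdc20 and Ube2c, though no test of the difference between genes was made.

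Chromosome structure held the highest share of increases, 6 of 7 genes. Mki67, which encodes the Ki-67 protein that coats mitotic chromosomes and is a common label of cycling cells, had 0.63, 0.57, 0.61 and 0.57, a mean of 0.60 ± 0.043 (SE, n = 4, limma adjusted p = 0.00164). Top2a, the topoisomerase that untangles sister DNA, had 0.27, 0.27, 0.40 and 0.27, a mean of 0.30 ± 0.046 (adjusted p = 0.00769). Both had all 4 arrays well above 0, and Mki67 had both the largest ratio and the smallest adjusted p of the 47 genes.

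Condensins are rings that compact mitotic chromosomes. Of the 5 genes of the ring arms and condensin I, 4 rose. Smc2, an arm of the ring, was measured on arrays 1, 2 and 4 with 0.45, 0.37 and 0.34, a mean of 0.39 ± 0.055 (SE, n = 3, limma adjusted p = 0.00813). Ncaph, the subunit that closes the condensin I ring, had 0.27, 0.46, 0.46 and 0.19, a mean of 0.35 ± 0.059 (adjusted p = 0.0111). Smc4, the other arm, had a mean of 0.25 ± 0.051 (adjusted p = 0.0199), and lost the call without array 1 (adjusted p = 0.0745) or array 3 (adjusted p = 0.0766). Ncapg had a mean of 0.19 ± 0.049 (adjusted p = 0.0394) and lost it without any 1 array (adjusted p = 0.0579 to 0.135). Ncapd2 had 0.15 (adjusted p = 0.132), with array 2 at -0.03. The condensin II subunits Ncapd3 and Ncapg2, counted in another list below, had 0.02 (limma adjusted p = 0.811) and -0.02 (limma adjusted p = 0.861). Ncaph2, also of condensin II, was not tested.

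None of the 3 cytokinesis genes passed, against 14.6% of all genes, although all 3 were above 0. Ect2, the exchange factor that switches on RhoA at the cleavage site, had 0.15, 0.36, 0.33 and -0.05, a mean of 0.20 ± 0.072 (SE, n = 4, limma adjusted p = 0.108). Racgap1, its centralspindlin partner, had a mean of 0.17 ± 0.047 (adjusted p = 0.0525) and passed under 6 alternatives, among them array weights (adjusted p = 0.0429). Anln, the ring scaffold anillin, had 0.10 (adjusted p = 0.231). All 3 had an interval that reaches past 0.20, so an increase like that of the genes that rose is not shown to be absent.

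Of the 25 increases, 14 were kept whichever array was left out: Ccna2, Ccnb1, Aurka, Tpx2, Mad2l1, Cenpa, Nuf2, Spc24, Cdc20, Ube2c, Mki67, Top2a, Smc2 and Ncaph. Leaving out array 1, 2, 3 or 4 gave 16, 21, 16 or 18 genes that rose and 0 that fell, while the count over all genes went from 2262 to 1122, 1634, 967 or 1051. The median over the 47 genes stayed between 0.19 and 0.23. In the reported fit and every alternative run, it exceeded the median of all genes by 0.17 to 0.24.

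**Figure D2:**
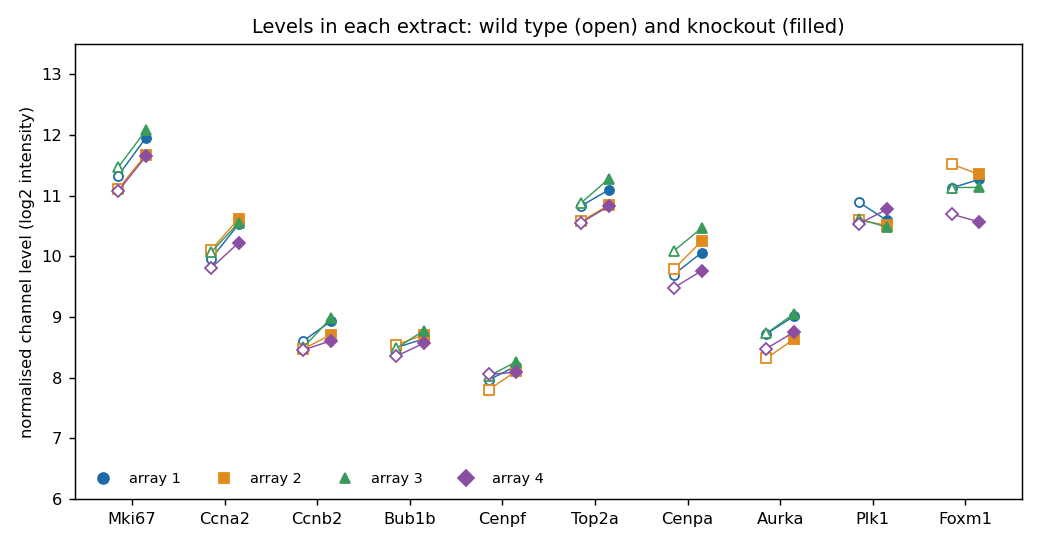
Normalised log2 level of 10 mitotic genes in each wild-type (open) and knockout (filled) extract, with the extracts of 1 array joined by a line. For Mki67 the 4 knockout extracts lie at 11.65 to 12.08 and the wild-type extracts at 11.08 to 11.47, while for Foxm1 and Plk1 the 2 groups overlap.

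Read as separate channels, the extracts of the groups overlapped for most genes. Of the 45 genes with all 8 channel levels, 5 (11.1%) had every knockout extract above every wild-type extract, against 6.24% of all genes, and 0 had the reverse. These were Mki67, Ccna2, Ccnb2, Bub1b and Cenpf. For Mki67 the log2 levels on arrays 1 to 4 were 11.96, 11.68, 12.08 and 11.65 in the knockout and 11.33, 11.11, 11.47 and 11.08 in the wild type. For Ccna2 they were 10.53, 10.62, 10.55 and 10.22 in the knockout and 9.95, 10.10, 10.06 and 9.80 in the wild type. For both genes the arrays kept nearly the same gap while both channels moved up and down together. Without the array as a replicate block, that is with the pairing within arrays dropped, limma called 0 of the 47 genes, with 15 at an unadjusted p under 0.05 and the lowest adjusted p 0.0790 for Ccna2, and called 106 of all genes (0.683%).

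**Figure D3:**
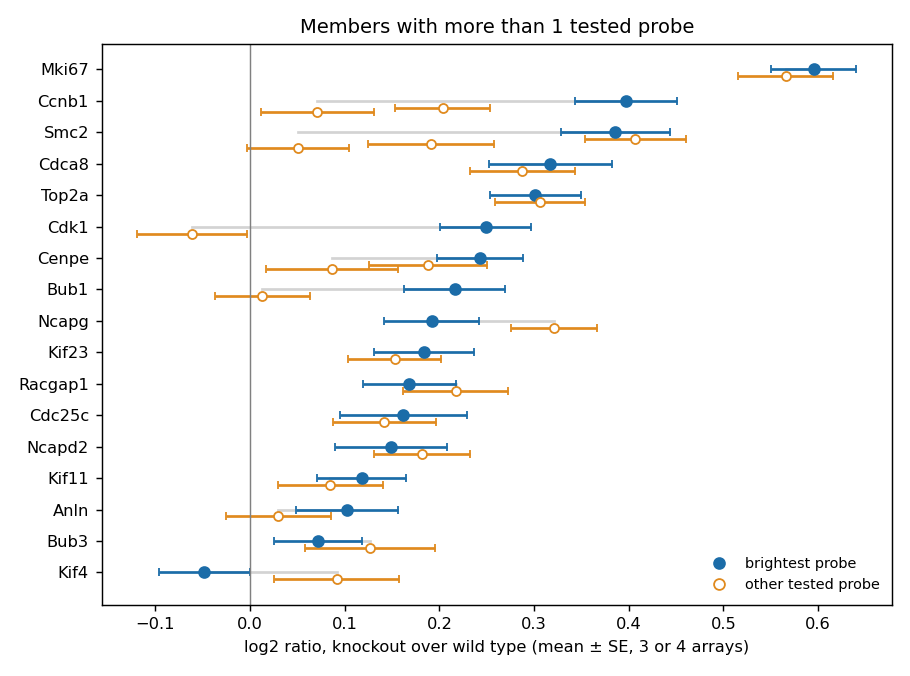
Log2 ratio of knockout over wild type (limma mean ± SE over 3 or 4 arrays) for the 17 mitotic genes with more than 1 tested probe, the brightest probe filled and the others open. The probes of Mki67 lie together at 0.60 and 0.57, while those of Cdk1 lie apart at 0.25 and -0.06.

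Other probes of the same genes mostly pointed the same way. Beyond the brightest probe, 21 probes of 17 genes were tested, and 20 of them were above 0, with a median of 0.15. In a limma fit of all 32597 probes, 3496 passed the adjusted threshold. Of the 21 probes 7 passed, 6 of them among 13 probes of genes that rose and 1 among 8 probes of the other genes. The second probe of Mki67 (A_51_P253803) had 0.57 ± 0.051 (n = 4, limma adjusted p over probes = 0.00142), that of Top2a (A_52_P415299) 0.31 (adjusted p = 0.00751), and that of Ncapg (A_51_P489268) 0.32 (adjusted p = 0.00547). For these genes the probes agreed within their errors, apart from Ncapg, whose second probe was the higher by more than its SE.

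Probes of other genes disagreed. The second probe of Cdk1 (A_52_P339954) had -0.06 ± 0.058 (n = 4, limma adjusted p over probes = 0.535) and that of Bub1 (A_52_P259126) 0.01 ± 0.050 (adjusted p = 0.896), each well above background on 4 arrays. With the mean of a gene's probes in place of the brightest, neither gene passed. Of the 3 probes of Ccnb1 the others had 0.20 (adjusted p = 0.0390) and 0.07 (adjusted p = 0.479), against 0.40 for the brightest. The 4 probes of Smc2 ran from 0.05 to 0.41. Which transcripts these probes read was not examined.

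**Figure D4:**
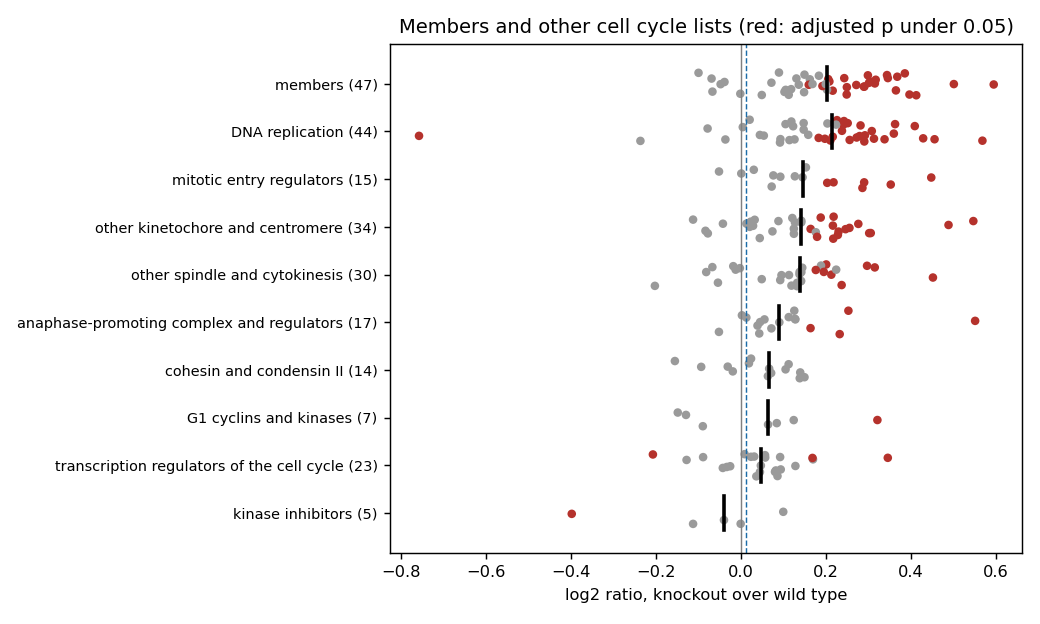
Fitted log2 ratio of knockout over wild type for each tested gene of the 47 mitotic genes and 9 other cell cycle lists (number tested in brackets), red where the limma adjusted p is under 0.05, with the list's median as a bar and the median of all genes, 0.013, as a dashed line. The medians of the mitotic genes (0.20) and the DNA replication genes (0.21) stand highest, and that of the kinase inhibitors (-0.04) lowest.

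Genes that work beside the 47 were read from 9 lists with 204 further genes, of which 189 were tested. In all, 60 rose and 3 fell (33.3% called, against 14.6% of all genes), with a median of 0.12. Of other kinetochore and centromere genes, 15 of 34 rose (44.1%, against 9.45% of all genes) and 0 fell, with a median of 0.14. Without array 1, 2, 3 or 4 the count was 4, 9, 5 or 8. Cenpw, a histone-fold protein of the inner kinetochore, rose by 0.49 ± 0.068 (SE, n = 4, limma adjusted p = 0.00552), Cenpp, of the same network, by 0.30 (adjusted p = 0.00747), and the shugoshins Sgo1 and Sgo2a, which guard centromeric cohesion, by 0.31 (adjusted p = 0.0118) and 0.25 (adjusted p = 0.0155).

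Among regulators of mitotic entry, 6 of 15 rose (40%, against 9.45% of all genes) and 0 fell, with a median of 0.14. Without array 1, 2, 3 or 4, 2, 4, 2 or 3 of them rose. Melk, a kinase of dividing cells, rose by 0.45 (limma adjusted p = 0.00434), Cks2, the small subunit that docks on Cdk1, by 0.35 (adjusted p = 0.00456), Ccnf, a cyclin that serves a ubiquitin ligase, by 0.29, and Plk4, the kinase of centriole duplication, by 0.22. Of other spindle and cytokinesis genes, 8 of 30 rose (26.7%, against 9.45% of all genes) and 0 fell, with a median of 0.14. Without array 1, 2, 3 or 4, 4, 5, 3 or 3 of them rose. Haus1, of the augmin complex that branches spindle microtubules, rose by 0.45 (adjusted p = 0.00456), the microtubule destabiliser Stmn1 by 0.32, and the kinesins Kif20b and Kif15 by 0.30 and 0.20.

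The anaphase-promoting complex and its regulators rose in 4 of 17 genes (23.5%, against 9.45% of all genes) and fell in 0, with a median of 0.09. These were Anapc13, a small subunit, at 0.55 (limma adjusted p = 0.00269), Ube2s, which extends ubiquitin chains, at 0.23, Fzr1, the activator that takes over from Cdc20, at 0.25, and the subunit Cdc26 at 0.16; without array 1, 2, 3 or 4 the count was 2, 3, 1 or 1. Of 14 tested cohesin and condensin II genes, 4 had an unadjusted limma p under 0.05, against 4777 of all 15531 genes. The list had 0 genes past the limma threshold and a median of 0.06, and 1 gene passed with the mean of a gene's probes. Its lowest adjusted p was that of Cdca5, the cohesin protector sororin, at -0.16 (adjusted p = 0.0599), and the cohesin subunit Stag1 had 0.15 (adjusted p = 0.0698).

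Of 23 transcription regulators of the cell cycle, 2 rose and 1 fell (13.0% called, against 14.6% of all genes), with a median of 0.05: E2f2 at 0.35 ± 0.093 (SE, n = 4, limma adjusted p = 0.0467), and Nfyc and Nfya, both subunits of the CCAAT-binding factor NF-Y, at 0.17 (adjusted p = 0.0438) and -0.21 (adjusted p = 0.0496). The increases numbered 0, 0, 1 or 0 without array 1, 2, 3 or 4, and the decrease was lost without any of them. Myc had -0.13 (adjusted p = 0.126). Of 7 cyclins and kinases of G1 phase, 1 passed (14.3%, against 14.6% of all genes). This was Cdk4, which rose by 0.32 ± 0.043 (adjusted p = 0.00456), with its 4 arrays between 0.28 and 0.34. The cyclin Ccnd2 had -0.13 (adjusted p = 0.0942).

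Among 5 kinase inhibitors, 1 passed the limma test (20%, against 14.6% of all genes). This was Cdkn1a, the p21 protein that blocks cyclin-dependent kinases, which fell, with -0.34, -0.40, -0.36 and -0.49 and a mean of -0.40 ± 0.047 (SE, n = 4, limma adjusted p = 0.00321). Cdkn1c, the p57 inhibitor, had -0.11 (adjusted p = 0.237), Cdkn1b, the p27 inhibitor, 0.10 (adjusted p = 0.379), and Cdkn2c -0.04 (adjusted p = 0.702). The list held 1 decrease under every alternative, each array left out included, except the fit with no replicate block, which called none.

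The DNA replication genes were close to the mitotic genes in count and median. Of 44 tested, 24 rose and 1 fell (56.8% called, against 14.6% of all genes), with a median of 0.21. For the mitotic genes these values were 25, 0 and 0.20. Without array 1, 2, 3 or 4 the replication increases numbered 11, 21, 14 or 11. Rfc4, a clamp loader subunit, rose by 0.57 ± 0.059 (SE, n = 4, limma adjusted p = 0.00230), Tyms, the thymidylate synthase, by 0.46 ± 0.045 (adjusted p = 0.00214), and Gmnn, the licensing inhibitor geminin, by 0.41 (adjusted p = 0.00435). Mcm5, a subunit of the replicative helicase, fell with -0.90, -0.58, -1.05 and -0.50, a mean of -0.76 ± 0.092 (adjusted p = 0.00363), apart from the rest of its list. No test between the lists was made.

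**Figure D5:**
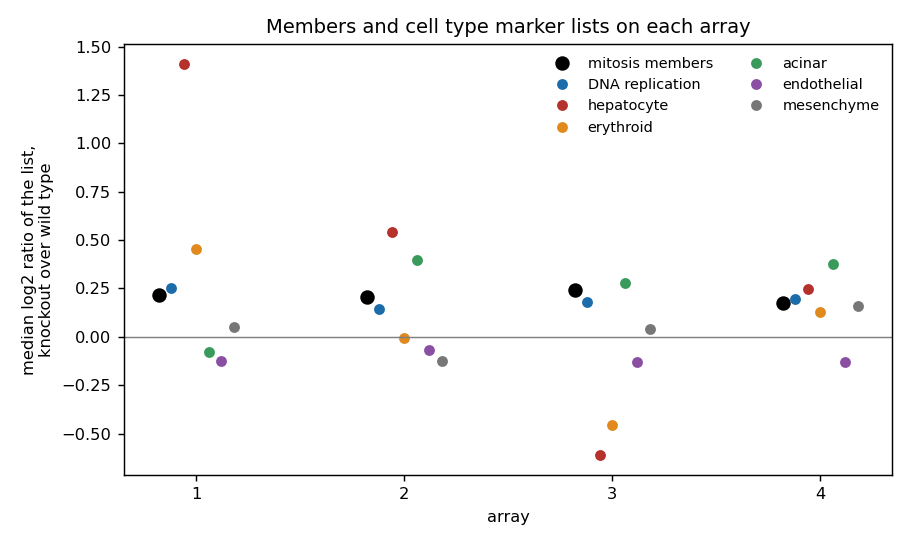
Median log2 ratio of knockout over wild type on each of the 4 arrays for the 47 mitotic genes, the DNA replication genes and 5 cell type marker lists. The mitotic genes lie between 0.17 and 0.24 on all arrays, while the hepatocyte list runs from 1.41 on array 1 to -0.61 on array 3.

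Markers of the cell types in or near the dissected pancreas were set beside the mitotic genes. Of 10 acinar genes, 4 rose and 1 fell (the lipase Pnlip, a call lost without any 1 array), with medians of -0.08, 0.40, 0.28 and 0.38 on arrays 1 to 4, and the summed level was 670105 to 903593 in the knockout extracts against 580493 to 668846 in the wild type. Cpa1, a carboxypeptidase, rose by 0.62 ± 0.092 (SE, n = 4, limma adjusted p = 0.00683), while the protease Ctrb1 had 0.23 (adjusted p = 0.155) and the amylase Amy2a5 0.10 (adjusted p = 0.593). The lowest acinar sum of the knockout lay above the highest of the wild type. Of the acinar genes 50% were called, against 14.6% of all genes. On arrays 1 to 4 the mitotic medians were 0.22, 0.21, 0.24 and 0.17. The part of acinar cells in the mitotic ratios was not tested.

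RNA of the hepatocyte and erythroid marker lists varied between extracts. The hepatocyte list had medians of 1.41, 0.54, -0.61 and 0.25 on arrays 1 to 4. In it, 0 of 12 genes passed the limma test (2 at an unadjusted p under 0.05, and 6 higher without array 3). Alb had 4.13, 2.70, -3.52 and 1.44. Summed over 10 genes of the list, the level ran from 9198 to 23487 in the knockout and from 9240 to 13288 in the wild type. The erythroid list had medians of 0.45, -0.0069, -0.45 and 0.13 and 0 of 9 past the limma test (0 at an unadjusted p under 0.05), and summed levels of 44374 to 73948 against 30089 to 60370. Of all 15531 genes, 4777 had an unadjusted limma p under 0.05. On arrays 1 to 4 the mitotic medians were 0.22, 0.21, 0.24 and 0.17. Which tissue this RNA came from, and its part in the mitotic ratios, were not tested.

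The remaining lists had medians between -0.09 and 0.08. Endothelial genes had 0 of 8 higher and 2 lower (25% called, against 14.6% of all genes), with a median of -0.09. Their medians on arrays 1 to 4 were -0.12, -0.07, -0.13 and -0.13. Of the 8, 1 had a fitted ratio above 0, and 4 were below 0 on every array, against 2388 of all 15531 genes. Their summed levels were 7074 to 8886 in the knockout against 7733 to 10120 in the wild type. The calls were Flt1 and Tek, and without array 1, 2, 3 or 4 there were 1, 3, 0 or 0. Endocrine genes had 0 of 10 higher and 1 lower (10% called, against 14.6% of all genes), the granule protein Chga, with a median of -0.03. Ins1 had 0.01 and Ins2 -0.02. Duct genes had 0 of 7 past the limma test with a median of 0.08, and nerve and Schwann genes 0 of 5 with a median of -0.02. Of all genes, 14.6% passed that test. Mesenchyme genes had 1 of 8 higher (12.5% called, against 14.6% of all genes) with a median of 0.03. The endocrine call was lost without array 1 or 3, the mesenchyme call, Pdgfrb, without array 4, and 1 duct gene was higher without array 1 or 2. Leukocyte genes had 1 of 12 higher (8.33% called, against 14.6% of all genes), the complement gene C1qa at 0.48 (3 higher without array 2). C1qb and C1qc, of the same complex, had -0.09 (limma adjusted p = 0.478) and -0.16 (limma adjusted p = 0.235). The median of the leukocyte list was -0.08, and 3 of its 12 genes had a fitted ratio above 0. Summed over 11 of these genes, levels were 44395 to 52435 in the knockout against 48833 to 59056 in the wild type. The called shares of the endocrine, mesenchyme and leukocyte lists did not exceed that of all genes. All 10 acinar, 10 endocrine, 7 duct, 8 mesenchyme and 8 endothelial genes that were tested were well above background throughout, and the part of any of these cell types in the mitotic ratios was not tested.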

How the data were processed

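Pancreas RNA of E18.5 embryos was measured on 4 two-colour arrays, knockout in red and wild type in green. Spots were read by the authors in Agilent Feature Extraction, version 10.5.1.1 (submitters' processing notes). The deposited columns hold, per the file headers, median spot and background intensity, processed intensity after background subtraction and a linear dye factor, and a log10 ratio (red over green). Per the file headers, spots are also marked as non-uniform or well above background. Other steps are not given in the sources used here.

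Median intensities were corrected with normexp (offset 50) and normalised by loess within each array in limma 3.58.1 (R 4.3.3), with control and non-uniform spots at weight 0. Non-uniform spots (597 to 979 an array) were left out, no spot was saturated, and spots of a probe were averaged. Of 41174 probes, 25097 (61.0%) were given a current symbol through their transcript accession and a RefSeq gene table of GRCm38.p6. A probe was tested if well above background in red on at least 3 arrays or in green on at least 3, with values on at least 3 arrays, and a gene was its brightest tested probe; 600 of the 15531 genes had 3 arrays. The log2 ratio was fitted against 0 (lmFit, eBayes, two-sided), adjusted over all genes tested, with a threshold of 0.05; the design pairs the extracts of an array inside each ratio. On simulated data, 179 of 200 changed genes among 15531 were recovered with 4 false calls. The share recovered at ratios as small as most of those reported here was not tested. Single channels were scaled with Aquantile and marker levels summed on the linear scale.

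All mitotic genes are accounted for; array values are printed for the genes past the threshold with the smallest p-values in each role, up to 4, and for every gene below 0, and those of other genes were added after their values were seen. Of the other lists up to 4 genes with the smallest p-values are named, and of the marker lists a few of the 3 brightest. Alb, Chga, Flt1, Tek, Pdgfrb, Pnlip, C1qb, C1qc, Ncapd3 and Ncapg2 were added after their values were seen. The genes and lists were chosen with earlier results of these data known. The alternatives changed 1 choice each: background, signal, deposited ratio, centring, scaling, filter, probe, block, variance model, array weights and replicates. The number of arrays limits the precision.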

Additional observations from a re-analysis of the deposited data

Results flagged for a closer look

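Of 45 mitotic genes with 4 array ratios, 2 had 1 array far from the others by Dixon's criterion, a rule that chance alone meets for about 1 gene in 20. Bub3, the checkpoint adaptor, had 0.0059 on array 2 against 0.09 for the nearest other array, and all 4 values were close to 0. Top2a, the topoisomerase of mitotic chromosomes, had 0.40 on array 3 against 0.27 for the nearest other array, and it passed the limma threshold without that array as well.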

How the results depend on the processing

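Under no background correction, no filter on dim probes, scaling between arrays, a strict filter, the mean of a gene's probes, eBayes with trend and robust, and array weights, 25 to 28 mitotic genes rose and 0 fell; with the processed signals or the deposited log ratio 23 rose, and the median of the list moved from 0.20 to 0.25 and 0.26. Under median centring 44 rose and 1 (Aurkb, -0.21) fell, the list's median was 0.48 and 11928 of all genes passed; the ratio of Foxm1 became 0.38, of Plk1 0.32, of Ndc80 0.41, of Kif4 0.41, of Pttg1 0.12 and of Espl1 0.30. With no replicate block, without the pairing of extracts on an array, 0 mitotic genes and 106 of all genes passed, and 15 mitotic genes had an unadjusted p under 0.05. Leaving out each replicate gave 16 to 21 mitotic genes, list medians of 0.19 to 0.23 and 967 to 1634 of all genes; fewer arrays were then tested. Signs close to 0 also turned. Leaving out each replicate gave -0.099 to 0.0045 for Foxm1, -0.17 to 0.0097 for Plk1 and -0.022 to 0.020 for Pttg1 (above 0 without replicate 2, 1, and 2 or 4), Pttg1 had 0.0080 with the deposited log ratio, and Kif4 had 0.022 with the mean of its probes. The cause of these changes was not tested. SEs of 0.042 to 0.082 limit what could be called, and with 1 dye orientation no setting separates dye from genotype.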
